A study of Mus musculus with 6 samples.

Results

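The angiopoietin group held 7 genes: the ligands Angpt1 and Angpt2, their receptors Tek and Tie1, and the angiopoietin-like genes Angptl2, Angptl4 and Angptl7. Each was 1 row of the 27502 genes listed for every sample, found by its symbol. The members were chosen by gene family and, for Angptl7, on its lower level after Ezh2 knockdown in these same samples. Differences of members between the groups are therefore given as a description, with no p-value.

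The cells were vascular smooth muscle cells grown in culture from mouse aorta, and their polyadenylated RNA was sequenced. In the siEzh2 group (3 samples) Ezh2 was knocked down, as the prefix of the label and the title of the series tell. Ezh2 encodes the main H3K27 methyltransferase of Polycomb repressive complex 2. The Control group (3 samples) is labelled as the control of that knockdown, and both groups were taken at 48 hours. The sources used here give no strain, sex or age of the mice, no siRNA sequence and no treatment of the Control cells. Nothing says that the samples of a group were separate cultures or animals, so spreads and p-values measure only the differences between these samples, which may be technical.

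Angiopoietins are secreted ligands of the receptor tyrosine kinase TIE2, encoded by Tek. Angpt1, made mainly by mural cells such as smooth muscle and pericytes, activates TIE2 on endothelium and stabilises vessels, while Angpt2 acts as an agonist or antagonist depending on context. Tie1 encodes a related co-receptor. Angiopoietin-like proteins share the coiled-coil and fibrinogen-like build of angiopoietins, but bind other partners: Angptl4 inhibits lipoprotein lipase, and Angptl2 signals through integrins and promotes inflammation.

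Recovered library sizes were 16080005 to 17553743 reads in the siEzh2 samples and 18248440 to 18753124 in the Control samples. Ezh2 had 1.20, 1.09 and 1.05 FPKM (fragments per kilobase of exon, scaled to library size) in the siEzh2 samples, against 3.41, 3.59 and 3.88 FPKM in the Control samples, so the knockdown matched the labels. Of the markers of smooth muscle, Acta2 (smooth muscle actin) was abundant, at 537 ± 17.8 FPKM in siEzh2 and 699 ± 14.8 in Control samples (SD, n = 3 each). Other contractile markers varied widely in level: as means of siEzh2 and Control samples, Myl9 (myosin light chain) had 65.5 and 154 FPKM and Smtn (smoothelin) 10.4 and 13.4. Myh11 (smooth muscle myosin) had 1.12 and 1.83 FPKM and Cnn1 (calponin) 1.04 and 1.14. Des, Tagln and Mylk were scarcer, at means of 0.431, 0.228 and 0.135 FPKM in siEzh2 samples. In Control samples these 3 genes had 0.752, 0.253 and 0.227 FPKM. An antisense gene covers 62.4% of the exon bases of Tagln. Myl9 had the largest fall among the 7 tested genes of the smooth muscle list, by 1.22 on the log2 scale, and Lmod1 (leiomodin) fell by 0.69. The most abundant of 7 listed fibroblast markers were Ly6a and Pdgfra. They averaged 294 and 37.5 FPKM in siEzh2 samples and 272 and 28.6 in Control samples. Dcn averaged 15.8 and 14.7 FPKM in siEzh2 and Control samples, Cd34 2.42 and 2.31, and Pi16 0.273 and 0.393. Dpt, at 10.2 and 24.8, and Lum, at 1.11 and 2.79, were lower in siEzh2 samples.

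Promoter sequences, as the 250 bases before the RefSeq start site (GRCm38.p6, the same assembly as mm10), were matched for 4 of the 7 genes: Tek, Tie1, Angptl2 and Angptl7. Polycomb repressive complex 2 is known to favour promoters rich in CpG, so the CpG content of these windows was counted. The 3 shown are of Angptl7, the gene with the largest fall, Tek, with the largest rise in ratio, and Angptl2, with the smallest rise. CpG dinucleotides are in capitals, and bases run 5′ to 3′ on the strand of the gene.
Angptl7: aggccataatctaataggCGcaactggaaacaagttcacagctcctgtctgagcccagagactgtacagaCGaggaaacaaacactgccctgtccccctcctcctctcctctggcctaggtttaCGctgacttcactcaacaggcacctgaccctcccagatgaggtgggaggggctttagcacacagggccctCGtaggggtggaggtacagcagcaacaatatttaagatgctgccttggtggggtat
Tek: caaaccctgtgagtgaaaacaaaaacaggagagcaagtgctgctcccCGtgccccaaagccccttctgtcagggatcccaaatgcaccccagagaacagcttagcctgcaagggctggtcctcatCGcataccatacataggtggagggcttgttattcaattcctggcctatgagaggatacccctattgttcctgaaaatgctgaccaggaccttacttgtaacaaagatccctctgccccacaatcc
Angptl2: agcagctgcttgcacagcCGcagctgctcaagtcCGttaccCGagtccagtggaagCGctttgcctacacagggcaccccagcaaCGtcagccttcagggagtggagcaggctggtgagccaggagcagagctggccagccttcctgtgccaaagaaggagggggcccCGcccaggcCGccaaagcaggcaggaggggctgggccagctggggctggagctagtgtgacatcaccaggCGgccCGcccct

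The Angptl7 window (chr4:148500463-148500712, minus strand) held 4 CpG, and 62.2% of the 250-base windows in the table held as many or more. Tek (chr4:94739039-94739288, plus strand) held 2 CpG, a count that 81.2% of windows reached. Angptl2 (chr2:33215711-33215960, plus strand) held 9, reached by 40.3%, and Tie1 (chr4:118489850-118490099, minus strand) held 6, the median of all windows. On both strands, 5 motifs were searched. TATAAA occurs in 12.4% of windows, CCAAT in 33.9%, GGGCGG in 32.7%, TGACTCA in 4.46% and ACGTG in 16.6%. Of these the Angptl2 window held GGGCGG 2 times, a motif that contains a CpG, and the other 3 windows held no match. Polycomb marks were not measured, and these counts describe the letters only.

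The angiopoietin-like genes held both the largest fall and the largest rise in FPKM. Angptl7 (ENSMUSG00000028989, chromosome 4 from 148495183 to 148500460, minus strand, mm10), a secreted protein studied mostly in the cornea and outflow tissue of the eye, had 4.09, 3.83 and 4.10 FPKM in siEzh2 samples. It had 12.6, 13.0 and 14.2 FPKM in Control samples. Every siEzh2 sample lay below every Control sample by a wide margin. The mean was 4.01 ± 0.157 FPKM in siEzh2 and 13.2 ± 0.819 in Control samples (SD, n = 3 each), 3.30 times lower. These values rest on 142 to 154 reads in each siEzh2 library and 496 to 567 in each Control library. As log2(FPKM + 1), a scale that shrinks the changes of scarce genes, the difference was −1.51 (SE 0.0526). On that scale 2 of 11869 tested genes had a larger fall. Angptl7 was chosen for its lower level in these samples, so nothing is read from this rank. In bulk RNA, fewer cells that express a gene and less RNA per cell cannot be told apart.

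Angptl4 (ENSMUSG00000002289, chromosome 17 from 33773750 to 33781830, minus strand), the inhibitor of lipoprotein lipase that fasting and low oxygen induce, went the other way. It had 31.5, 30.5 and 30.2 FPKM in siEzh2 samples, against 16.6, 17.0 and 16.5 FPKM in Control samples. The groups were far apart and the replicates close, with means of 30.7 ± 0.697 FPKM in siEzh2 and 16.7 ± 0.292 in Control samples (SD, n = 3 each), 1.84 times higher. The log2 difference was 0.84 (SE 0.0350), which ranked 174 among the rises of 11869 tested genes.

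Angptl2 (ENSMUSG00000004105, chromosome 2 from 33216069 to 33247717, plus strand) was abundant in both groups and differed little. It had 22.4, 22.4 and 24.2 FPKM in siEzh2 samples and 20.2, 20.9 and 20.7 FPKM in Control samples. The groups did not overlap, yet the mean was only 1.12 times higher, at 23.0 ± 1.03 FPKM in siEzh2 and 20.6 ± 0.366 in Control samples (SD, n = 3 each). The log2 difference was 0.15 (SE 0.0426). Its call was lost without Control sample 1, 2 or 3, without siEzh2 sample 3, and with the replicate number as a block.

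**Figure D1:**
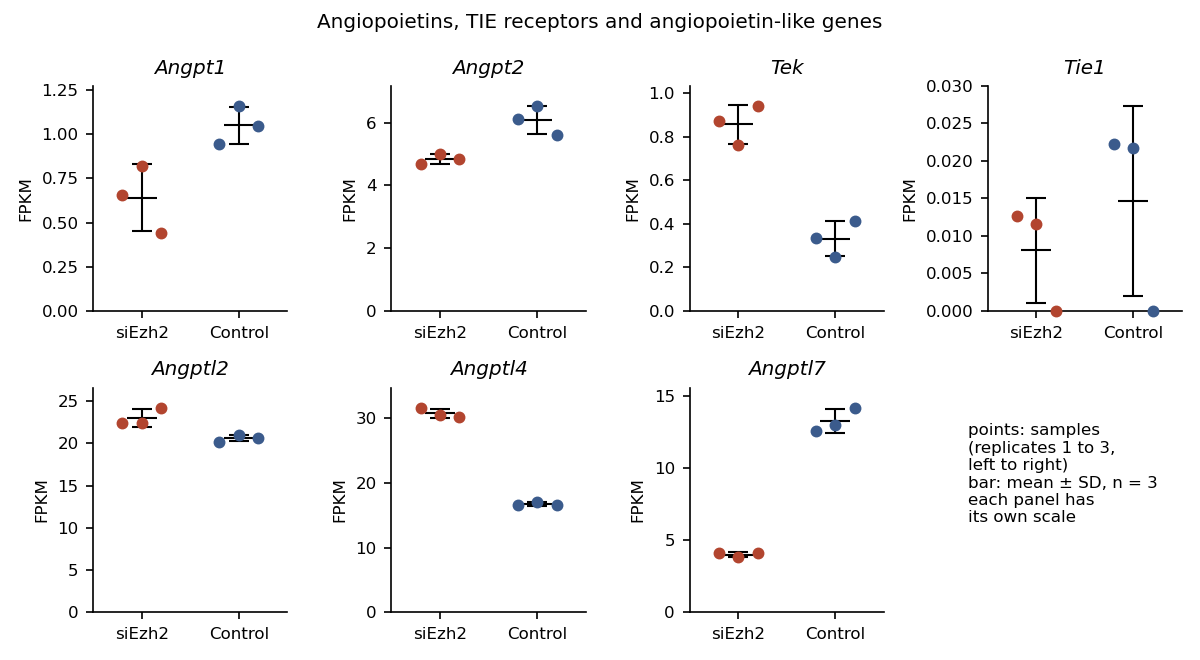
FPKM of the 7 genes in each sample (points), with the mean and SD of each group (n = 3), siEzh2 left and Control right; each panel has its own axis from 0. Angptl7 lies at 3.83 to 4.10 in siEzh2 samples and 12.6 to 14.2 in Control samples, Angptl4 and Tek are higher in every siEzh2 sample, and Tie1 is near 0 throughout.

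Both ligands of the TIE2 receptor were lower in siEzh2 samples. Angpt2 (ENSMUSG00000031465, chromosome 8 from 18690263 to 18741562, minus strand) had 4.67, 4.98 and 4.84 FPKM in siEzh2 samples, against 6.11, 6.51 and 5.60 FPKM in Control samples. The groups did not overlap, with means of 4.83 ± 0.158 FPKM in siEzh2 and 6.08 ± 0.454 in Control samples (SD, n = 3 each), 1.26 times lower. Its log2 difference was −0.28 (SE 0.0554).

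Angpt1 (ENSMUSG00000022309, chromosome 15 from 42424723 to 42676977, minus strand) was scarce for a mural cell ligand. It had 0.657, 0.820 and 0.442 FPKM in siEzh2 samples, against 0.947, 1.16 and 1.05 FPKM in Control samples. The siEzh2 samples were all lower, but also spread widely, on 55, 75 and 40 reads. The means were 0.639 ± 0.190 FPKM in siEzh2 and 1.05 ± 0.105 in Control samples (SD, n = 3 each), 1.64 times lower. The log2 difference was −0.33 (SE 0.0903), and −0.67 with a pseudocount of 0.1 and −0.76 by limma-voom on recovered reads. Angpt1 passed the filter of 1 FPKM only through its Control mean, and an antisense gene covers 14.2% of its exon bases. Its call was lost without Control sample 3 or siEzh2 sample 1 and with no filter, and without Control sample 2 it fell below the filter and was not tested.

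The ligand ratio was less clear than either ligand. Angpt2 had 7.10, 6.08 and 11.0 times the FPKM of Angpt1 in siEzh2 samples, against 6.46, 5.63 and 5.36 times in Control samples. These ranges overlapped, and the highest ratio came from siEzh2 sample 3, which had the fewest Angpt1 reads.

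The receptors were present at trace levels. Tek (ENSMUSG00000006386, chromosome 4 from 94739289 to 94874976, plus strand), which encodes TIE2, had 0.871, 0.761 and 0.939 FPKM in siEzh2 samples, against 0.337, 0.249 and 0.411 FPKM in Control samples. Every siEzh2 sample was higher, at a mean of 0.857 ± 0.0897 FPKM against 0.332 ± 0.0815 in Control samples (SD, n = 3 each), 2.58 times. These values rest on 206 reads over the 3 siEzh2 libraries and 87 over the 3 Control libraries. Tek lay below the filter of the test. Where a filter on recovered reads or no filter let it in, it was called higher, with a log2 difference of 0.48.

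Tie1 (ENSMUSG00000033191, chromosome 4 from 118471191 to 118490061, minus strand) had 1, 1 and 0 reads in siEzh2 libraries and 2, 2 and 0 in Control libraries. All were under the floor of 3 reads, the most that a count of 0 leaves possible. For this gene the floor equals 0.0347 to 0.0379 FPKM in siEzh2 and 0.0325 to 0.0334 in Control libraries, and it covers counting error only. No difference in Tie1 was detectable at this depth.

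TIE2 and TIE1 are known as endothelial receptors, so markers of endothelium were set beside them. Of 15 listed, 14 were measured and 3 tested: Kdr (VEGF receptor 2) rose, while Flt1 (VEGF receptor 1) and Emcn (endomucin) fell. The summed FPKM of the list was 12.5 to 13.2 in siEzh2 samples and 14.4 to 15.2 in Control samples, most of it Flt1 at 8.11 ± 0.242 and 10.5 ± 0.385 FPKM in siEzh2 and Control samples (SD, n = 3 each). Defining markers were near 0: Pecam1 averaged 0.0789 FPKM in siEzh2 and 0.170 in Control samples, and Cdh5 (VE-cadherin) 0.196 and 0.223. Sox18 and Mmrn1 had at most 3 reads in any library, and no gene of the list was at 0 in all 6. Vwf (von Willebrand factor) had 0.932 ± 0.109 FPKM in siEzh2 and 0.417 ± 0.0524 in Control samples (SD, n = 3 each), a difference in the direction of Tek. The part of endothelial cells in the level of Tek was not tested. Pericyte markers summed to 170 to 177 FPKM in siEzh2 and 167 to 169 in Control samples, most of it Pdgfrb, with 1 of 4 tested higher (Cspg4) and 1 lower (Notch3). Beside the calls in both marker lists, 24.1% of all tested genes were higher and 22.7% lower.

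Of the 7 members, 5 were tested, of which 2 were called higher, where 24.1% of all tested genes were, and 3 lower, where the share was 22.7%. In either direction 46.9% of all tested genes were called, at an adjusted p under 0.05. Groups did not overlap for any of the 5 tested members, nor for 58.1% of all tested genes, and among the untested members they did not overlap for Tek and did for Tie1. As the choice of members used this contrast, nothing is read from these counts. The median log2 difference was −0.28 over the 5 tested members and 0.01 over all tested genes.

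**Figure D2:**
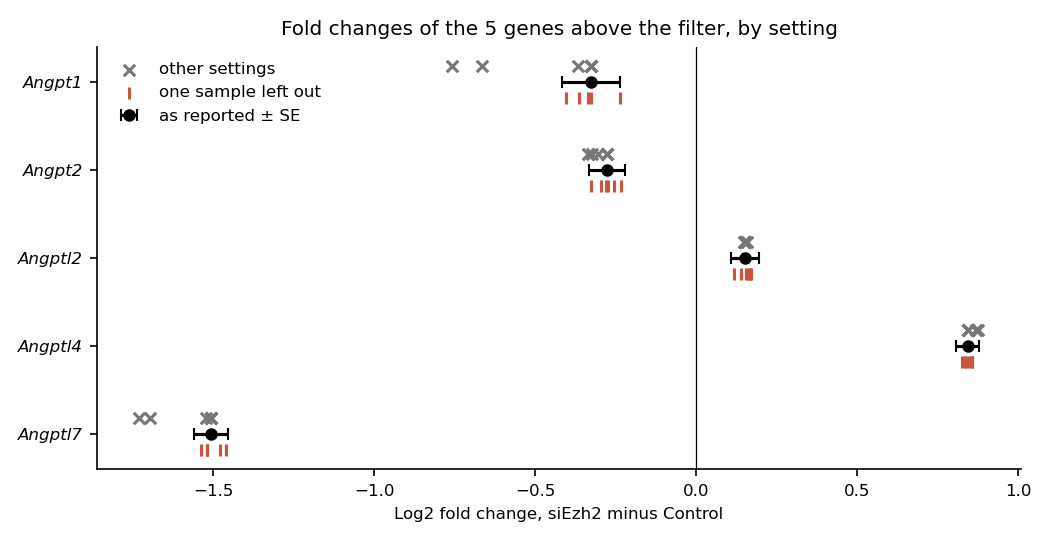
Log2 difference (siEzh2 minus Control) of the 5 members above the filter, with its SE as reported (black), under the other settings (crosses) and with 1 sample left out (red ticks). Angptl7 stays between −1.73 and −1.46 and Angptl4 between 0.82 and 0.88, while Angpt1 ranges from −0.76 to −0.24.

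The order of levels within the family differed between the groups. In siEzh2 samples Angptl4 (30.7 FPKM) stood above Angptl2 (23.0), Angpt2 (4.83), Angptl7 (4.01) and Angpt4 (2.45). In Control samples Angptl2 (20.6) stood above Angptl4 (16.7), Angptl7 (13.2), Angpt2 (6.08) and Angpt4 (3.09). In both groups the sample ranges of neighbours among these 5 genes did not overlap. Below them Angptl8, Tek, Angpt1 and Angptl6 followed in siEzh2 samples, and neighbours among these genes had overlapping ranges. In Control samples the order was Angpt1, Angptl8, Angptl6 and Tek, and only Angptl6 and Tek among these neighbours had separate ranges.

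Angptl4 made up 46.0%, 45.3% and 44.2% of the summed FPKM of all 12 family genes, receptors included, in siEzh2 samples, and 26.8%, 27.2% and 26.3% in Control samples. Angptl7 made up 5.97%, 5.68% and 6.01% in siEzh2 samples, against 20.4%, 20.7% and 22.6% in Control samples. The sum of the 12 genes was 68.1 ± 0.632 FPKM in siEzh2 and 62.4 ± 0.530 in Control samples (SD, n = 3 each). The share of Angptl2 overlapped between the groups, at 33.8% ± 1.44 in siEzh2 and 33.1% ± 0.373 in Control samples (SD, n = 3 each).

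**Figure D3:**
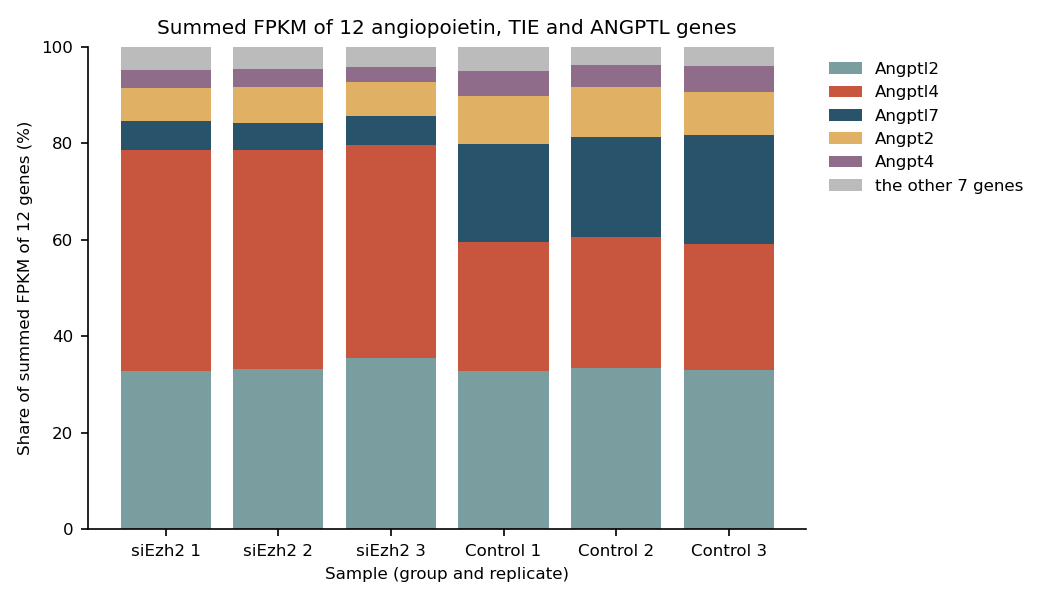
Share of each gene in the summed FPKM of 12 angiopoietin, TIE and angiopoietin-like genes, one bar per sample, siEzh2 left and Control right. Angptl4 takes 44.2% to 46.0% in siEzh2 samples and 26.3% to 27.2% in Control samples, and Angptl7 5.68% to 6.01% and 20.4% to 22.6%.

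Further family genes were low. Angpt4 (ENSMUSG00000027460), a further ligand of TIE2, had 2.58, 2.61 and 2.17 FPKM in siEzh2 samples, against 3.21, 2.74 and 3.32 FPKM in Control samples, more than Angpt1 in each. It fell by 0.24 on the log2 scale (SE 0.0771; limma, Benjamini-Hochberg adjusted p = 0.0412), a call lost under 7 alternatives (adjusted p = 0.0584 to 0.117), among them leaving out any 1 of Control samples 1 and 3 and siEzh2 samples 1, 2 and 3. Angptl8, which takes part in lipase control, had 0.866 ± 0.210 FPKM in siEzh2 and 0.648 ± 0.371 in Control samples (SD, n = 3 each), and the groups overlapped. Angptl6 had 0.617 ± 0.153 and 0.557 ± 0.0455 FPKM in siEzh2 and Control samples (SD, n = 3 each), with 16.8% of its exon bases in an overlapping gene on the other strand. Angptl1 had 0 to 5 reads in each library.

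Several family genes lie inside a larger gene on the opposite strand, with no exon bases shared with it. Angptl7 lies inside Mtor (chromosome 4 from 148448611 to 148557683), the growth kinase, which had 6.86, 6.62 and 7.17 FPKM in siEzh2 samples and 7.37, 7.72 and 7.71 FPKM in Control samples. Mtor thus fell by only 0.13 on the log2 scale (adjusted p = 0.0449, limma with Benjamini-Hochberg adjustment), a call lost under 8 of 13 alternatives (adjusted p = 0.0530 to 0.125). Without Control sample 1, 2 or 3 it was lost (adjusted p = 0.0575, 0.122 and 0.121), as without siEzh2 sample 1 (0.0966) or 2 (0.125).
Angpt2 lies inside Mcph1, a gene of chromosome condensation, which differed in the other direction from Angpt2. Mcph1 had 1.57 ± 0.137 FPKM in siEzh2 and 1.22 ± 0.121 in Control samples (SD, n = 3 each, log2 difference 0.21, adjusted p = 0.0277, limma). That call was lost under 7 of 13 alternatives (adjusted p = 0.0582 to 0.0825), among them leaving out Control sample 1 or 3 or siEzh2 sample 2 or 3. Ralgps1, around Angptl2, was below the filter, at 0.680 FPKM in siEzh2 and 0.831 in Control samples. Dock6 (around Angptl8) and Ralgps2 (around Angptl1) did not pass the test, though limma-voom called Ralgps2 lower (adjusted p = 0.0173). Ralgps2 passed the filter of 1 FPKM only through its Control mean, at 0.842 FPKM in siEzh2 and 1.06 in Control samples.

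Of 28 listed genes of TIE2 signalling 23 were tested: 4 rose, 5 fell and 14 did not pass, where 46.9% of all tested genes were called in either direction, with a median log2 difference of −0.00059 beside 0.01 over all tested genes. Svep1, a matrix protein that binds TIE1, fell to 15.0 ± 0.0372 FPKM in siEzh2 samples, against 27.3 ± 0.377 in Control samples (SD, n = 3 each, log2 difference −0.82, adjusted p = 4.02e-05, limma), with 13.9% of its exon bases in a noncoding gene on the other strand. Among integrin subunits, which bind angiopoietins and Angptl2 as well as matrix, Itgb3 had 3.97 ± 0.215 FPKM in siEzh2 and 1.98 ± 0.178 in Control samples (SD, n = 3 each, adjusted p = 0.000243, limma). Itga5 rose to 124 ± 0.768 FPKM, against 99.6 ± 0.560 in Control samples (SD, n = 3 each, adjusted p = 0.000532, limma), and Itgb1 by 0.14 on the log2 scale. Itgav did not pass, at 40.8 FPKM in siEzh2 and 39.5 in Control samples (adjusted p = 0.408, limma), and its groups overlapped.
The adaptor Grb14 rose by 0.24. Klf2, a transcription factor downstream of TIE2 in endothelium, fell by 0.30, and the adaptors Grb2 and Shc1 by 0.18 and 0.16. The call of Shc1 was lost without Control sample 2 or 3 (adjusted p = 0.0509 and 0.0502, limma). The kinase Akt1 had 133 ± 5.21 FPKM in siEzh2 and 134 ± 4.50 in Control samples (SD, n = 3 each), with overlapping groups and a sign that changed with the setting.

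Of 14 listed lipases and other partners of angiopoietin-like proteins 10 were tested: 3 rose, 3 fell and 4 did not pass, beside 24.1% higher and 22.7% lower over all tested genes. Their median log2 difference was −0.067. Lipoprotein lipase (Lpl), the target of Angptl4, had 5.22 ± 0.338 FPKM in siEzh2 and 5.60 ± 0.265 in Control samples (SD, n = 3 each, adjusted p = 0.237, limma), and the groups overlapped. Lpl was named after its values were seen. Lipg, endothelial lipase, rose to 5.25 ± 0.553 FPKM in siEzh2 samples, against 3.34 ± 0.290 in Control samples (SD, n = 3 each, adjusted p = 0.00287, limma).
Sdc4, a heparan sulfate proteoglycan, rose to 210 ± 7.16 FPKM, against 145 ± 0.673 in Control samples (SD, n = 3 each, adjusted p = 0.000184, limma), and the lipoprotein receptor Vldlr rose by 0.18 on the log2 scale. The proprotein convertases Pcsk6 and Pcsk5, which can cleave lipases and angiopoietin-like proteins, fell by 0.50 and 0.28. With a pseudocount of 0.1 the fall of Pcsk5 was 0.53. Pcsk5 passed the filter of 1 FPKM only through its Control mean, at 0.762 FPKM in siEzh2 and 1.14 in Control samples. Furin did not pass (29.9 ± 1.63 FPKM in siEzh2 and 30.2 ± 0.895 in Control samples, SD, n = 3 each). Mcam, an adhesion molecule reported to bind Angptl2, was lower by 0.38 (adjusted p = 0.0448, limma), a call lost under 6 of 13 alternatives (adjusted p = 0.0562 to 0.124), among them leaving out Control sample 1 or 2 or siEzh2 sample 1 or 3. The fatty acid receptor Cd36 had 5.96 ± 0.327 and 6.20 ± 0.237 FPKM in siEzh2 and Control samples (SD, n = 3 each), within the spread.

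PPAR factors, hypoxia factors and their targets are known regulators of Angptl4 or share regulators with it. Of 20 listed PPAR and hypoxia factors and targets, 16 were tested: 2 rose, 7 fell and 7 did not pass, where 24.1% of all tested genes were higher and 22.7% lower. The median log2 difference was −0.054, beside 0.01 over all tested genes, and no test set the list against other genes. Plin2, a lipid droplet coat and PPAR target, rose to 63.2 ± 0.878 FPKM in siEzh2 samples, against 49.7 ± 1.21 in Control samples (SD, n = 3 each, adjusted p = 0.000664, limma). Vegfa, a hypoxia target, rose by 0.21 on the log2 scale. Pdk4, a PPAR and glucocorticoid target, had 57.5 ± 2.26 and 53.5 ± 3.16 FPKM in siEzh2 and Control samples (SD, n = 3 each) and did not pass (adjusted p = 0.169, limma), though limma-voom called it higher (adjusted p = 0.0396).
Epas1, which encodes HIF-2 alpha, fell to 20.7 ± 1.81 FPKM in siEzh2 samples, against 37.0 ± 1.07 in Control samples (SD, n = 3 each, adjusted p = 0.000268, limma). Hif1a did not pass, at 26.6 FPKM in siEzh2 and 26.3 in Control samples (adjusted p = 0.795, limma). Nor did the factors Arnt, Ppard and Rxra or the hypoxia target Egln3 (adjusted p = 0.380 to 0.592, limma). The groups overlapped for each of these genes that did not pass. Cpt1a, the carnitine palmitoyltransferase of fatty acid oxidation, fell by 0.34, Pparg by 0.28 and the glucocorticoid receptor Nr3c1 by 0.24. The oxidation enzymes Acadm and Acadvl and the carrier Slc25a20 were the other 3 that fell, and 42.9% of the exon bases of Acadvl lie in Dvl2 on the other strand. The calls of Acadvl and Slc25a20 were lost without Control sample 1 or 3 (adjusted p = 0.0531 to 0.0997, limma), and that of Slc25a20 also without siEzh2 sample 1 or 2 (0.0629 and 0.0968) and with no filter (0.0517).

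Adipocytes also express Angptl4 and Pparg, so their markers were set beside these genes. Of 7 listed, 5 were tested, with 4 lower and none higher. For these and the marker counts that follow, the shares over all tested genes were 22.7% lower and 24.1% higher. The summed FPKM of the adipocyte list was 37.4 to 38.9 in siEzh2 and 53.5 to 54.7 in Control samples. Fabp4 averaged 12.6 FPKM in siEzh2 and 19.5 in Control samples, and Plin4 15.4 and 22.4, both lower. Adipoq (adiponectin), also lower, averaged 7.38 FPKM in siEzh2 and 8.79 in Control samples, while Lep (leptin) was near 0, at 0.104 and 0.0962 FPKM. Smooth muscle markers summed to 609 to 648 FPKM in siEzh2 and 875 to 900.4 in Control samples, with 5 of 7 tested lower, and fibroblast markers to 352 to 367 and 337 to 360 FPKM. In the fibroblast list Dpt and Lum fell and Pdgfra rose, with 3 of 6 tested genes not past the test. Macrophage markers summed to 14.1 to 15.2 FPKM in siEzh2 and 17.2 to 20.5 in Control samples, with 2 of 4 tested higher and 2 lower, and Ptprc at no more than 3 reads in any library. Of these 4, Csf1r and Lyz2 fell by 0.89 and 1.03 on the log2 scale, while Cd68 and Cd14 rose by 0.22 and 0.28. Csf1r passed the filter of 1 FPKM only through its Control mean, at 0.621 FPKM in siEzh2 and 2.01 in Control samples. An overlapping gene on the other strand covers 15.1% of the exon bases of Csf1r. The part of cell composition in the members' differences was not tested.

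**Figure D4:**
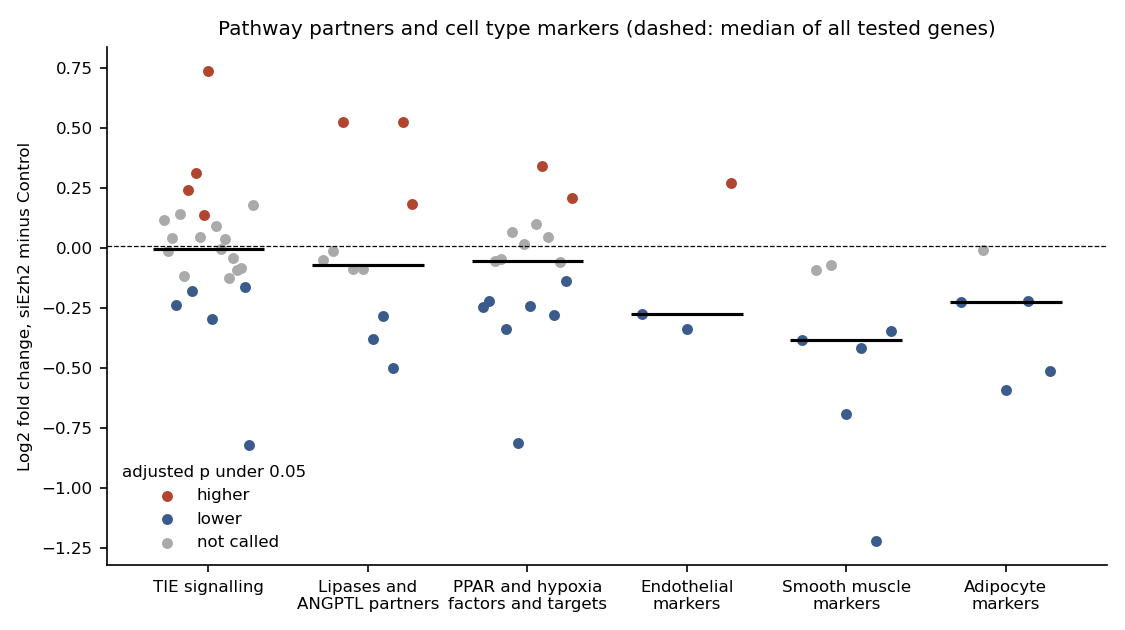
Log2 difference (siEzh2 minus Control) of each tested gene in 3 partner lists and 3 marker lists, coloured by the call at an adjusted p under 0.05, with each list's median (black bar) and the median of all tested genes (dashed, 0.01). The partner lists scatter on both sides of 0, with Svep1 and Epas1 lowest, and 5 of 7 tested smooth muscle markers are lower, where 22.7% of all tested genes are.

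The genes whose pattern lay nearest to that of Angptl7 were Apln, Ehd3, Susd2, Sult1a1 and Pawr, in this order. Nearness was the Euclidean distance of log2(FPKM + 1) over the 6 samples, each gene centred on its Control mean, among 6574 tested genes that averaged 5 FPKM or more. Genes with a symbol that starts with Gm and a digit, or ends in Rik, were left out of the 6574. The distances were 0.281 for Apln, 0.289 for Ehd3, 0.294 for Susd2, 0.350 for Sult1a1 and 0.374 for Pawr. With 2 groups of 3 samples this likeness reflects mainly falls of a like size, of −1.41 for Apln and −1.65 for Susd2 on the log2 scale. Apln encodes the peptide apelin, Ehd3 a protein of endocytic recycling, Susd2 a membrane protein, Sult1a1 a sulfotransferase and Pawr a regulator of cell death.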

How the data were processed

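The authors deposited 1 table of FPKM values per sample, per the file headers, for 27502 genes. The submitters' processing notes name Trimmomatic, HISAT2, Cufflinks, HTSeq and mm10, without versions. No source used here says whether counting used strand or how reads on overlapping genes were counted. Overlapping antisense genes may therefore have raised or lowered the level of a gene. Libraries were TruSeq Stranded mRNA, per the labels' protocols.

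A gene was tested if either group averaged 1 FPKM or more, with limma 3.58.1 (R 4.3.3) on log2(FPKM + 1), siEzh2 minus Control, without covariates, and p-values were adjusted by Benjamini-Hochberg over all tested genes. The fit was also run on simulated reads in which a small set of genes was changed. In these samples 46.9% of tested genes were called, so that setting differs and nothing is read from it. Python 3.11.15, pandas 2.3.3, numpy 2.4.6 and matplotlib 3.10.9 did the rest. FPKM times GENCODE M21 exon length gave whole reads, within 0.02, for 98.4% to 98.5% of values under 1000 reads. Intervals and floors of 3 reads cover counting error only.

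The members and lists were chosen with earlier results of these data known. Named were all family genes and hosts, in each partner list up to 6 called genes with the smallest adjusted p and the 3 most abundant, and the 5 genes nearest to Angptl7. Other genes named from the lists, called or not, and all markers were named after their values were seen. Some genes that the rule names are not reported here. As alternatives, the values were quantile normalized, the filter was dropped or set at a mean of 10 reads, the replicate number was a block, trend and robust were switched on in limma, the pseudocount was 0.1, or the test was limma-voom on recovered reads with TMM factors, and each sample was left out in turn.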

Additional observations from a re-analysis of the deposited data

How the results depend on the processing

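Over all tested genes, 2309 to 3153 were called higher and 2156 to 3148 lower under the 13 alternatives. The directions of Angpt1, Angpt2, Angptl2, Angptl4 and Angptl7 were the same in every alternative that tested them, from which nothing is read, since the members were chosen on this contrast. Members called higher numbered 2 as reported, 3 with no filter or a filter on recovered reads, which let Tek in, 1 with the replicate number as a block and 1 to 2 when 1 sample was left out, both through Angptl2. Members called lower numbered 3 as reported and 2 to 3 under the alternatives. Among genes with no call, Akt1 changed sign with quantile normalization (log2 difference 0.037) and ranged from −0.035 to 0.023 with 1 sample left out, and Furin from −0.056 to 0.013. The cause of these changes was not tested. Of the TIE2 signalling genes 9 were called lower and 6 higher by limma-voom, against 5 and 4 as reported. Over all tested genes, limma-voom called 3148 lower and 3052 higher, against 2695 and 2866 as reported. Replicate numbers were shared between the groups, but deviations of same-numbered samples correlated at only 0.0243 to 0.0695, so the samples were not taken as pairs, although each sample correlated best with its own number. With the block, 2564 genes were higher and 2385 lower. Depth limits Tie1 and Angptl1, at no more than 5 reads in a library.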
